A study of Danio rerio with 6 samples.

Results

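Alternative first exons were examined by RNA-seq of zebrafish embryos, taken whole at 3 days post fertilisation. The mutant group, csf1ra-/-, carried a homozygous knockout of csf1ra made with CRISPR/Cas9, and the wild-type group was labelled TU. Each genotype had 3 libraries. csf1ra encodes a receptor tyrosine kinase for colony-stimulating factor, known for its part in xanthophores (yellow pigment cells), macrophages and microglia. The labels name neither the allele nor the clutches, and 30 embryos were collected per genotype or per sample, since the wording allows both readings. The p-values therefore measure the spread between these libraries, which may be technical. Whole embryos mix all cell types, so fewer cells of a type and less RNA per cell cannot be told apart in any value given here.

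The members were 3390 genes of the 18494 that had at least 1 first-exon event with a gene ID. A first-exon event is a transcript's opening exon, from its start site to its first splice donor. Its value is in FPKM, a count of sequenced fragments scaled to length and library size. Whether that value belongs to the exon alone or to the transcripts that start with it is not stated. A gene was kept where at least 2 distinct first exons were listed over all libraries and their FPKM summed to at least 1 in all 6 libraries. These genes held 8850 of the 25307 first exons. The lowest library sum was 1.00146 FPKM for npl, just inside the minimum, and 0.99851 FPKM for b4galnt3b, just outside it. An exon's share is its percentage of the summed first-exon FPKM of its gene in that library.

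Alternative first exons arise where a gene has more than 1 promoter, so that RNA polymerase starts at different places and each start site is followed by its own exon. They can also arise where transcripts from 1 start site use different first splice donors. Because downstream exons are often shared, such transcripts can differ in the 5′ untranslated region alone or in the protein's first residues, and the promoters can be active in different tissues. Tropomyosins, protocadherins and many cytoskeletal linker genes are textbook vertebrate cases.

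The targeted gene had a single first exon and was therefore no member. That exon of csf1ra (GRCz10 chromosome 14, 3201757 to 3202038, minus strand) was not listed in mutant libraries 1 and 2 and held 0.563 FPKM in mutant library 3, against 4.54, 4.07 and 3.72 FPKM in the wild-type libraries. Its paralogue csf1rb also had a single first exon, with 4.84, 3.41 and 2.8 FPKM in mutant libraries, against 7.71, 6.3 and 6.4 FPKM in wild-type libraries. Each library listed 19628 to 20297 first exons with a gene ID. No read totals were used here, so the depth of the libraries is unknown and the spread between them is the only error given. Along the first principal component of the first-exon log ratios, which held 28.1% of the variance, the mutant libraries lay at -33.65, -44.65 and -28.42 and the wild-type libraries at 27.61, 37.84 and 41.27. The second component, with 21% of the variance, set mutant library 3 (-48.29) farthest from mutant library 2 (39.63).

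Most of these genes had few first exons and relied on 1 of them. Of the 3390 genes, 2267 (66.9%) had 2 first exons, 694 had 3, 247 had 4, 94 had 5 and 88 had 6 or more. The median share of the leading exon over all libraries was 90.4%. In 1241 genes the leading exon held over 95%, and in 517 genes it held under 60%. The same exon led in all 6 libraries in 2563 genes (75.6%).

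Properties of the annotation shape what counts as a first exon of a gene. First, a gene ID could cover more than 1 gene: 722 members shared their locus with another gene of the authors' deposited table that had no events of its own, 266 had first exons on both strands and 308 had more than 1 locus number. One ID held 71 first exons. The 2414 genes with none of these features are called loci of 1 gene below. In 1460 of them (60.5%) the leading exon was the most upstream one, and among the 1701 with exactly 2 first exons that share was 66.6%. Second, many exons were not listed in every library: 5459 of the 8850 exons (61.7%) were listed in all 6 libraries and 1399 in a single library. Exons listed in every library of 1 genotype and in none of the other numbered 53 in the mutant direction and 53 in the wild-type direction.

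The comparison of each first exon's share between genotypes asks whether the mutant and wild-type groups start genes at different exons. The labels do not say whether the groups were siblings, so loss of csf1ra and family background cannot be told apart. Between mutant and wild-type embryos, 50 of 4907 tested first exons differed in their share, in 31 of 2149 genes. The exons called were 1.02% of those tested, with 23 higher in the mutant (0.469%) and 27 lower (0.55%), and the genes were 1.44%. The shares of a gene's first exons add up to the whole, so a rise in 1 exon comes with a fall elsewhere. The counts higher and lower are therefore tied to each other. The largest differences were whole replacements of an exon in caspb, selj and setd8b, which encode an inflammatory caspase, a fish selenoprotein and a histone lysine methyltransferase. The tested exons were those with a mean share of 5% to 95%. The test was limma's moderated two-sided test on log2 of the exon's FPKM plus 1 over the FPKM of the gene's other first exons plus 1, with Benjamini-Hochberg adjustment over all 4907 exons and a threshold of 0.05. Below, "called" means past that threshold, and differences of shares are mutant minus wild type in percentage points.

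Shares varied widely between libraries of 1 genotype. Their median SD was 8.52 points among mutant libraries and 8.45 points among wild-type libraries (n = 3 each), and the median absolute difference between the genotypes' mean shares was 8.26 points. A difference of at least 20 points was seen in 775 tested exons, of which 46 were called, and one of at least 50 points in 79 exons, of which 29 were called. The genotypes' shares did not overlap in 667 exons (13.6%), among them all 50 called exons. With 3 libraries against 3, such a separation in either direction has an exact permutation p of 0.1, so it is common without any genotype difference. Of the called exons, 25 were listed in all 6 libraries, 10 in no mutant library and 9 in no wild-type library. Of the 31 genes, 19 were loci of 1 gene, which is 1.25% of the 1514 such genes tested.

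The number of calls changed with the libraries included. Without mutant libraries 1, 2 and 3 it was 36, 29 and 28 exons, and without wild-type libraries 1, 2 and 3 it was 17, 19 and 17. The exons also called with all libraries numbered 21 in each of the 3 fits without a mutant library and 16, 17 and 17 in those without a wild-type library. Among the 21 genes described one by one next, 9 kept the call whichever library was left out: caspb, selj, setd8b, c8g, map2k6, maptb, glrx, ccdc106a and tuba8l4.

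**Figure D1:**
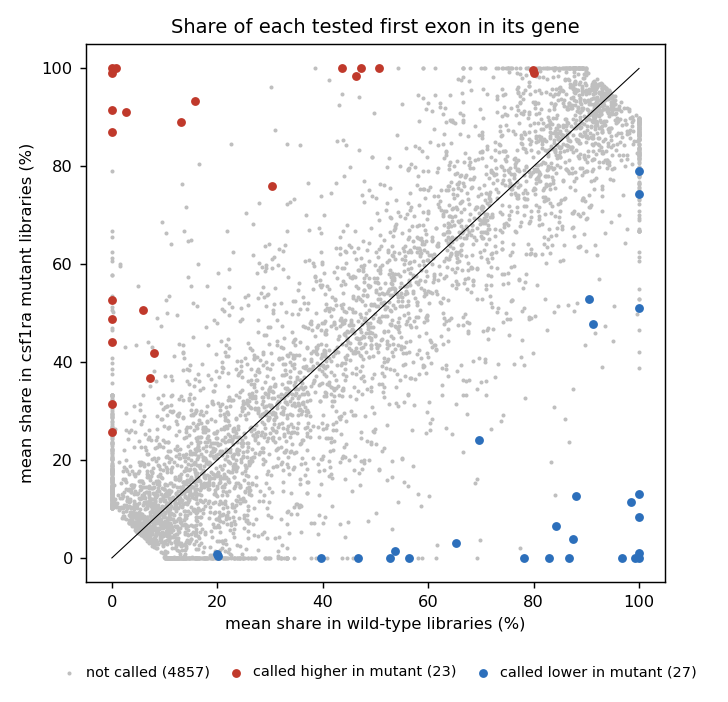
Mean share of each of the 4907 tested first exons in the mutant libraries (vertical axis, %) against the wild-type libraries (horizontal axis, %), n = 3 libraries each, with the line of equal shares. Red points are the 23 exons called higher in the mutant, blue points the 27 called lower and grey points the rest; many grey points lie as far from the line as the coloured ones.

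In caspb, selj, setd8b and c8g, all loci of 1 gene, most of the first-exon signal sat on a different exon in each genotype. This also held in other loci of 1 gene, among them ccdc106a and AIMP1 (1 of many), described further below. caspb, on chromosome 1 (minus strand), encodes a caspase of the zebrafish inflammasome. Its upstream first exon (57329012 to 57329240) had 52.7, 33.5 and 34.2 FPKM in mutant libraries and was listed in no wild-type library. Its downstream first exon (57326043 to 57326122) was listed in no mutant library and had 58.6, 62.1 and 46.2 FPKM in wild-type libraries. Each exon thus held 100% of the signal in every library of 1 genotype and 0% in every library of the other, a difference of 100 points (limma adjusted p = 3.18e-05, and at most 0.00118 without any 1 library). The starts lie 3118 bp apart. The gene's total was 40.2 ± 10.9 FPKM in mutants and 55.6 ± 8.35 FPKM in wild type (SD, n = 3 each), which was not called (limma adjusted p = 0.281).

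selj, on chromosome 2 (plus strand), encodes a selenoprotein related to the J1 crystallins of jellyfish. Its upstream exon (16492316 to 16492455) held 99.0%, 99.1% and 99.0% in mutant libraries and was listed in no wild-type library. The second exon (16492392 to 16492669) held 1.01%, 0.92% and 0.989% in mutant libraries and 100% in each wild-type library. The genotypes were far apart, at a difference of 99.0 points (SE 0.0272, limma adjusted p = 5.67e-05). These 2 exons overlap: their starts are 76 bp apart and their splice donors 214 bp apart. The total was 13.5 ± 0.922 FPKM in mutants and 15.1 ± 1.41 FPKM in wild type (SD, n = 3 each, log2 fold change -0.15, SE 0.1, limma adjusted p = 0.497).

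setd8b, on chromosome 5 (plus strand), encodes a methyltransferase of histone H4. Its downstream exon (69013663 to 69013904) had 8.57, 10.6 and 8.48 FPKM in mutant libraries, and was listed among wild-type libraries in number 3 alone, at 0.15 FPKM. The upstream exon (69013438 to 69013556), whose start lies 225 bp away, was listed in no mutant library and had 4.63, 5.7 and 6.83 FPKM in wild-type libraries. The downstream exon's share was 99.3 points higher in mutants (SE 0.718, limma adjusted p = 0.000195). The total differed by a log2 fold change of 0.6 (SE 0.15), which was not called (limma adjusted p = 0.116).

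c8g, on chromosome 24 (minus strand), encodes the gamma chain of complement component C8, a lipocalin that the liver secretes. Its second exon (16884797 to 16884954) had 136, 129 and 115 FPKM in mutant libraries, against 1.33, 3.43 and 0.303 FPKM in wild-type libraries. The most upstream exon (16894956 to 16895219) had 5.81, 5.69 and 4.84 FPKM in mutant libraries, against 65.9, 53.4 and 53.6 FPKM in wild-type libraries. The groups did not overlap for either exon. Shares of the second exon were 92.1%, 91.2% and 90.2% in mutants, against 1.74%, 5.56% and 0.506% in wild type, a difference of 88.6 points (SE 1.61, limma adjusted p = 0.00126). The upstream exon's share was 83.5 points lower (limma adjusted p = 0.000106). The last one (16878819 to 16878973), with 5.97, 6.76 and 7.7 FPKM in mutants and 9.12, 4.84 and 6.07 FPKM in wild type, was not called (limma adjusted p = 0.593). That exon lies downstream of both tested last exons of c8g (16882891 to 16883324 and 16886710 to 16887361), so no transcript starting there ends in them. The criteria for a locus of 1 gene did not check this. Unlike the 3 genes before it, c8g also had a called total, at 139 ± 10.4 FPKM in mutants and 66.0 ± 8.99 FPKM in wild type (log2 fold change 1.07, SE 0.11, limma adjusted p = 0.00622). The starts of its first and second exon lie 10265 bp apart.

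**Figure D2:**
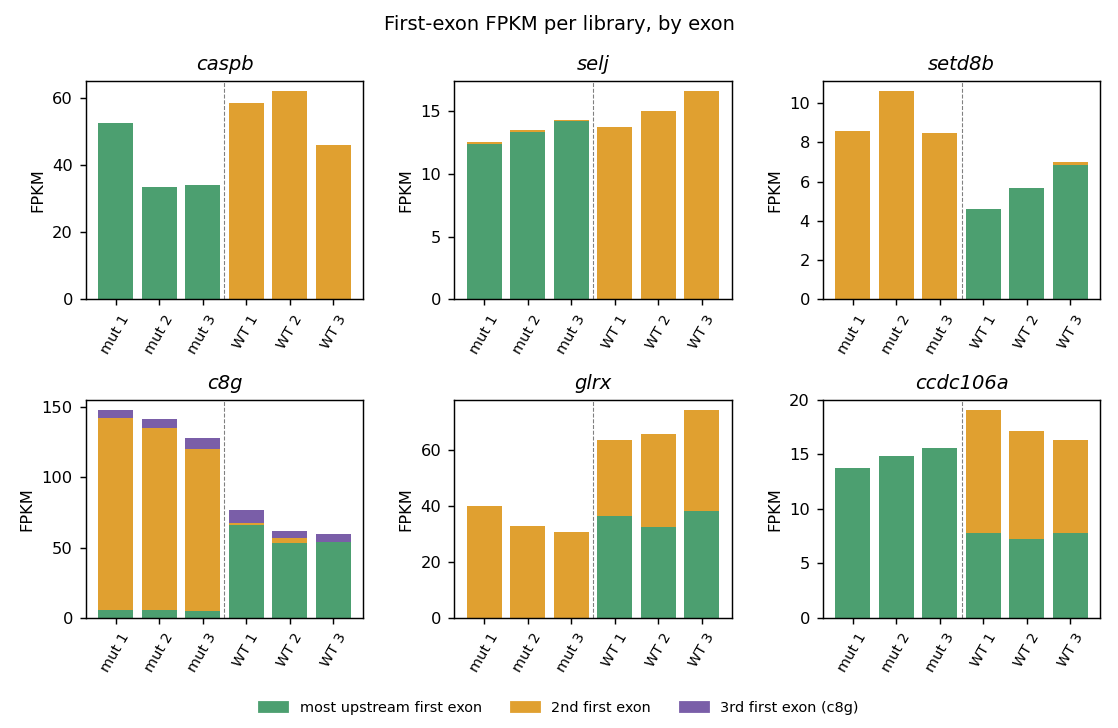
FPKM of each first exon (bar segments) in every library for 6 genes, mutant libraries (mut) left of the dashed line and wild-type libraries (WT) right of it, n = 3 each, in the order of the exons along the transcript's direction. In caspb, selj, setd8b and c8g the colours change places between genotypes, while in glrx and ccdc106a 1 exon is listed in all libraries and the other in wild type alone.

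In 2 further loci of 1 gene, a wild-type exon was listed in no mutant library, and more than 1 other exon stood in its place. map2k6, on chromosome 12 (plus strand), encodes a kinase that activates stress-responsive MAP kinases. Its second exon (36415069 to 36415345) was listed in no mutant library and held 90.3%, 100% and 100% in wild-type libraries, at 15.1, 15.6 and 17.4 FPKM (difference -96.8 points, SE 3.22, limma adjusted p = 0.00319). The neighbouring first exon (36414696 to 36415054) held 51.6%, 100% and 21.6% in mutant libraries and was listed in no wild-type library, and the mutant spread was too wide for a call (limma adjusted p = 0.18). The total was 8.12 ± 3.74 FPKM in mutants, against 16.5 ± 0.919 FPKM in wild type (SD, n = 3 each, limma adjusted p = 0.109).

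maptb, on chromosome 3 (minus strand), is one of the zebrafish copies of the gene for tau, a microtubule-associated protein of neurons. Its second exon (22083434 to 22083481) was listed in no mutant library and had 15.1, 18.5 and 16.5 FPKM in wild-type libraries, or 71.2%, 86.5% and 91.4% of the gene (difference -83.0 points, SE 6.1, limma adjusted p = 0.00217). In mutants the first exon (22085653 to 22085893) held 85.6%, 19.7% and 81.9% and in wild-type libraries it was not listed (limma adjusted p = 0.117). The third exon (22082143 to 22082216) held 14.4%, 80.3% and 18.1% in mutants, against 28.8%, 13.5% and 6.97% in wild type (limma adjusted p = 0.736). Mutant library 2 therefore led with another exon than mutant libraries 1 and 3. The total was not called (log2 fold change -0.23, SE 0.09, limma adjusted p = 0.288).

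In 2 loci of 1 gene, an exon that wild-type embryos used beside another was listed in no mutant library. glrx, on chromosome 21 (plus strand), encodes glutaredoxin, which reduces disulphides with glutathione. Its downstream exon (11686195 to 11686454) had 40.0, 32.9 and 30.7 FPKM in mutant libraries, against 26.9, 33.4 and 36.2 FPKM in wild-type libraries, so the genotypes overlapped in level. The upstream exon (11683700 to 11683914), 2495 bp away, was listed in no mutant library and had 36.6, 32.5 and 38.2 FPKM in wild-type libraries. The downstream exon therefore held 100% in each mutant library, against 42.4%, 50.7% and 48.7% in wild type (difference 52.8 points, SE 2.51, limma adjusted p = 0.00126). The total fell to 34.6 ± 4.84 FPKM in mutants, against 68.0 ± 5.74 FPKM in wild type (log2 fold change -0.96, SE 0.11, limma adjusted p = 0.0116).

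ccdc106a, a coiled-coil gene on chromosome 16 (minus strand), behaved differently in level. Its upstream exon (17751852 to 17752014) had 13.7, 14.8 and 15.6 FPKM in mutant libraries, against 7.75, 7.25 and 7.79 FPKM in wild-type libraries. The other exon (17751843 to 17751983) was listed in no mutant library and had 11.3, 9.86 and 8.46 FPKM in wild-type libraries. The upstream exon held 100% in each mutant library, against 40.7%, 42.3% and 48.0% in wild type (difference 56.3 points, SE 2.19, limma adjusted p = 0.00157). The exons overlap, with starts 31 bp and splice donors 9 bp apart, and the total was not called (log2 fold change -0.23, SE 0.09, limma adjusted p = 0.281).

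In 2 genes, an exon listed in no wild-type library shared the gene's signal in mutants. tuba8l4, on chromosome 6 (plus strand), encodes an alpha tubulin. Its upstream exon (6816330 to 6816478) had 25.3, 14.2 and 24.1 FPKM in mutant libraries and was listed in no wild-type library. The downstream exon (6816698 to 6816841), 368 bp away, had 16.2, 24 and 25.5 FPKM in mutant libraries, against 41.8, 48.7 and 45.6 FPKM in wild-type libraries. The upstream exon thus held 60.9%, 37.3% and 48.6% of the gene in mutants (difference 48.9 points, SE 6.82, limma adjusted p = 0.00343), and the total was not called (log2 fold change -0.08, SE 0.11, limma adjusted p = 0.785). tuba8l4 was not in a locus of 1 gene.

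tbc1d1, on chromosome 1 (minus strand), encodes a GTPase-activating protein for Rab proteins that acts in glucose uptake in mammalian muscle. Its second exon (18079099 to 18079304) had 4.53, 4.29 and 4.76 FPKM in mutant libraries and was listed in no wild-type library. The third exon (18059376 to 18059527) had 4.12, 4.57 and 3.57 FPKM in mutant libraries, against 6.27, 5.03 and 7.18 FPKM in wild-type libraries. The second exon held 52.4%, 48.4% and 57.1% in mutants (difference 52.6 points, SE 2.51, limma adjusted p = 0.00825). This call was kept without each mutant library and lost without each wild-type library, and the limma adjusted p over the 6 omissions ran from 0.0346 to 0.0623.

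**Figure D3:**
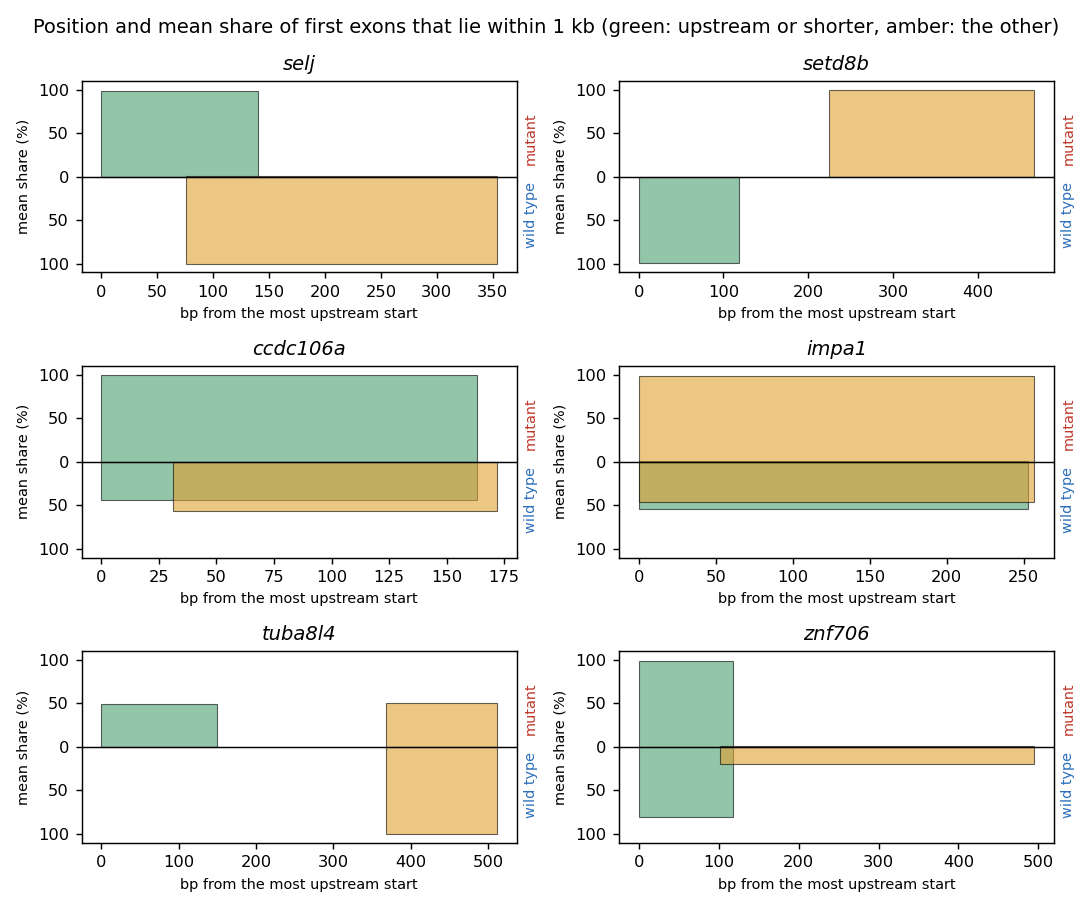
Position and mean share of first exons of 6 genes, in bp from the most upstream start in the direction of transcription. Bars above the line give the mean share (%) in mutant libraries and bars below it that in wild-type libraries, n = 3 each; the exons of selj, ccdc106a, impa1 and znf706 overlap, and those of setd8b and tuba8l4 are separate.

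A further 11 exons named by the same rule were called with all libraries and lost the call when libraries were left out, so their limma adjusted p is given with its range over the 6 omissions. In impa1, the gene of inositol monophosphatase on chromosome 2, both first exons start at 27027279 and their splice donors are 4 bp apart. The longer one (to 27027535) held 97.6%, 98.9% and 99.0% in mutant libraries, against 61.1%, 49.0% and 28.9% in wild-type libraries (limma adjusted p = 0.0342, range 0.0628 to 0.137). Wild-type libraries differed from each other more than mutant ones did. The downstream exon of AIMP1 (1 of many) on chromosome 23, a gene of the multi-tRNA synthetase complex, held 80.7%, 74.2% and 72.8% in mutants, against 38.0%, 22.7% and 30.3% in wild type (0.0384, range 0.0873 to 0.137).

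dedd1, a death effector domain gene on chromosome 16, had its downstream exon, the third (10968527 to 10969053), at 16.6, 10.1 and 10.8 FPKM in mutants, against 0.699, 1.6 and 0.214 FPKM in wild type. Its first exon (10950261 to 10950314) overlapped in level, at 15.8, 10.9 and 8.7 FPKM in mutants, against 11.2, 13.4 and 10.1 FPKM in wild type. The third exon's share was 44.7 points higher in mutants (SE 3.13, limma adjusted p = 0.0147, range 0.0534 to 0.0873). For map7d1b, a microtubule-associated gene on chromosome 19, the first exon held 100% in each mutant library, against 41.3%, 66.2% and 44.3% in wild type (limma adjusted p = 0.0417, range 0.0435 to 0.165). That call was kept only without wild-type library 2, and the ID shares its locus with 3 other genes.

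Among the 27 called exons with a lower share in mutants, that of rpl35a, which encodes a protein of the large ribosomal subunit, had the highest mean level in wild type. Its first exon (chromosome 18, plus strand, 45784345 to 45784432) had 8.77, 8.49 and 9.63 FPKM in mutant libraries, against 127, 156 and 72.9 FPKM in wild-type libraries. The second exon (45784426 to 45784941) had 422, 290 and 10.4 FPKM in mutant libraries, against 8.32, 21.6 and 31.0 FPKM in wild-type libraries. Mutant library 3 departed from the other mutants: its leading exon was the third (45784432 to 45784724), with 216 FPKM, against 1.14 and 0.816 FPKM in mutant libraries 1 and 2. Wild-type libraries varied as well, with 9.29, 35.3 and 107 FPKM for the third exon. It led in wild-type library 3, at 50.7% beside 34.6% for the first exon. The first exon's share was 62.2 points lower in mutants (SE 15.9, limma adjusted p = 0.0468, range 0.0177 to 0.187), and the call was kept only without wild-type library 3. The starts of all 3 exons lie within 87 bp.

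cry1bb, a cryptochrome gene of the circadian clock on chromosome 22, shares its locus with btg2. Its first exon held 57.8%, 48.0% and 53.3% in mutants, against 92.2%, 88.7% and 91.0% in wild type (limma adjusted p = 0.0355, range 0.0826 to 0.137). The second exon, 31389 bp downstream, had 3.87, 3.51 and 3.31 FPKM in mutants, against 0.489, 0.876 and 0.653 FPKM in wild type. In arpp19b, an inhibitor of protein phosphatase 2A on chromosome 25, the third exon held 87.2%, 70.7% and 79.0% in mutants, against 100% in each wild-type library (limma adjusted p = 0.0416, range 0.0835 to 0.178). Separate groups were a condition for naming both genes, and the difference was smaller than in caspb or c8g.

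The other 4 were wild-type exons that were rare or not listed in mutants, all in loci that hold another gene as well. The exon of gpc2, a glypican of the cell surface, was listed in no mutant library and held 83.5%, 76.7% and 100% in wild type (limma adjusted p = 0.0399, range 0.0826 to 0.137). gpc2 lies on chromosome 14, 3.04 Mb from csf1ra, and was the only called gene among the 76 tested on that chromosome. The exon of acy1, an aminoacylase, held 0%, 14.3% and 23.9% in mutants, against 83.3%, 80.5% and 100% in wild type (0.0461, range 0.113 to 0.163). A downstream exon of acy1 (36805125 to 36805234) was also called, with all libraries (limma adjusted p = 0.0106). It held 39.1%, 43.8% and 49.6% in mutants and was listed in no wild-type library. trak1, an adaptor for mitochondrial transport, and slc37a4a, a glucose phosphate transporter of the endoplasmic reticulum, each had an exon listed in no mutant library. Those exons held 33.5%, 44.0% and 62.6% in wild type for trak1 (0.0461, range 0.0873 to 0.165). For slc37a4a they held 46.6%, 24% and 48.2% (0.0441, range 0.059 to 0.189).

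**Figure D4:**
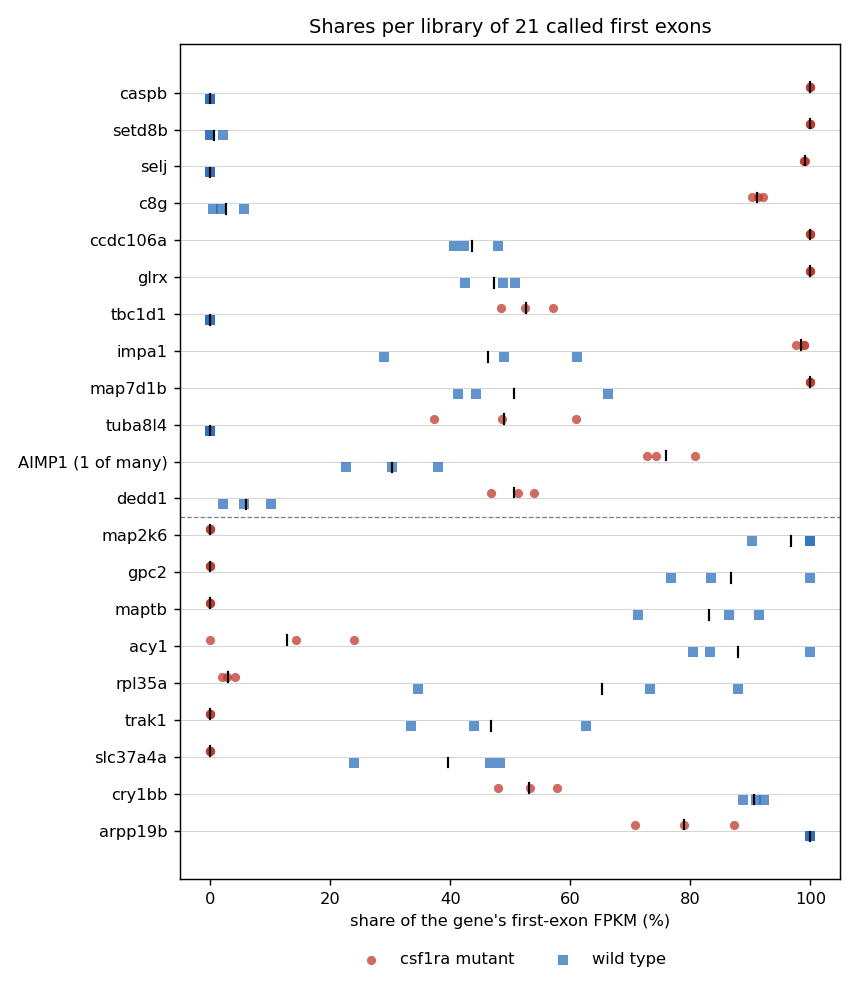
Share of 21 called first exons, 1 per gene, in each library (%), with mutant libraries as red circles above wild-type libraries as blue squares and black ticks at each genotype's mean (n = 3 each). The 12 exons above the dashed line were higher in the mutant and the 9 below it lower. Shares without overlap were a condition for choosing these exons, so circles and squares are separate in every row.

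The remaining called genes fell outside the naming rule and are named after their values were seen. carkd, pank1b, alyref and znf706 had smaller rises than the 12 named. In alyref, an adaptor of mRNA export, the downstream exon (59591985 to 59592466) had 0.299, 0.297 and 0.31 FPKM in mutants, against 12.1, 17.6 and 20.6 FPKM in wild type. The upstream exon of alyref had 59.3, 78.3 and 65.6 FPKM in mutants, against 62.2, 69.9 and 65.5 FPKM in wild type, so its share was 19.7 points higher (SE 2.22, limma adjusted p = 0.0275). pank1b, a pantothenate kinase of coenzyme A synthesis, had a downstream exon with 29.5%, 26.5% and 21.2% in mutants that no wild-type library listed (limma adjusted p = 0.0285). keap1b, an adaptor that targets the antioxidant factor Nrf2, zgc:158464, zgc:154077, zgc:77816, CABZ01059415.2 and si:ch73-266f23.1 were the other 6.

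The leading exon itself differed between the genotypes in few genes. In 22 of the 3390 genes (0.649%), 1 exon led in all 3 mutant libraries and another in all 3 wild-type libraries, and 17 of these were loci of 1 gene. The test called 10 of them and not the other 12. Of the 8 with the highest totals, caspb, c8g, selj and ccdc106a are described above. cst14a.2, a cystatin that inhibits cysteine proteases, had an upstream exon at 53.2%, 57.3% and 55.3% in mutants, against 30.1%, 34.1% and 21.9% in wild type (difference 26.6 points, SE 3.77, limma adjusted p = 0.141). pias2, a ligase for the modifier SUMO, had its most downstream exon at 55.8%, 56.0% and 63.0% in mutants, against 40.0%, 27.7% and 15.1% in wild type (limma adjusted p = 0.252). The other uncalled ones among the 8, si:ch211-253h3.4 and si:ch211-212k18.4, had limma adjusted p of 0.117 and 0.244 for the exons with the widest gap.

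Where both a rising and a falling exon of 1 gene on 1 strand were called, the position of the rising exon had no single direction. Of 18 such genes, the exon higher in the mutant was upstream in 7, downstream in 10 and shared its start in 1. The starts lay a median of 1897 bp apart, with a range of 0 to 31389 bp, and 8 pairs were under 1000 bp apart. Among the 1510 genes with exactly 2 tested first exons on 1 strand the median was 6084 bp, and 475 (31.5%) were under 1000 bp apart. The exons overlapped in 4 of the 18 genes (impa1, ccdc106a, selj and znf706) and in 316 of the 1510 (20.9%). Called genes lay on 18 of the 25 chromosomes, with at most 3 on any of them.

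Most of the genes with a called exon had no called change of the gene's total, though such a total may still differ. Called totals were more frequent among them than among all genes with a tested exon. Of the 31 genes with a called exon, 4 had a called first-exon total: c8g and znf706 were higher in the mutant, and glrx and keap1b were lower. Over all 12251 genes with at least 1 FPKM of first exons in every library, 180 totals were called (1.47%), 94 higher (0.767%) and 86 lower (0.702%) in the mutant, and over the 2149 genes with a tested exon 29 were (1.35%). Among genes with alternative first exons 47 of 3390 were called (1.39%), and among genes with a single first exon 133 of 8861 (1.5%). The median absolute log2 change of the total was 0.345 in the 31 genes and 0.165 in the 2149. znf706, a zinc finger gene, had 60.4 ± 7.67 FPKM in mutants, against 19.0 ± 9.2 FPKM in wild type (log2 fold change 1.71, SE 0.3, limma adjusted p = 0.0486), with its upstream exon at 99.2%, 98.8% and 99.3% in mutants, against 87.6%, 75% and 77.3% in wild type. keap1b had a total of 1.7 ± 0.595 FPKM in mutants and 5.6 ± 1.06 FPKM in wild type (log2 fold change -1.3, SE 0.2, limma adjusted p = 0.0289).

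**Figure D5:**
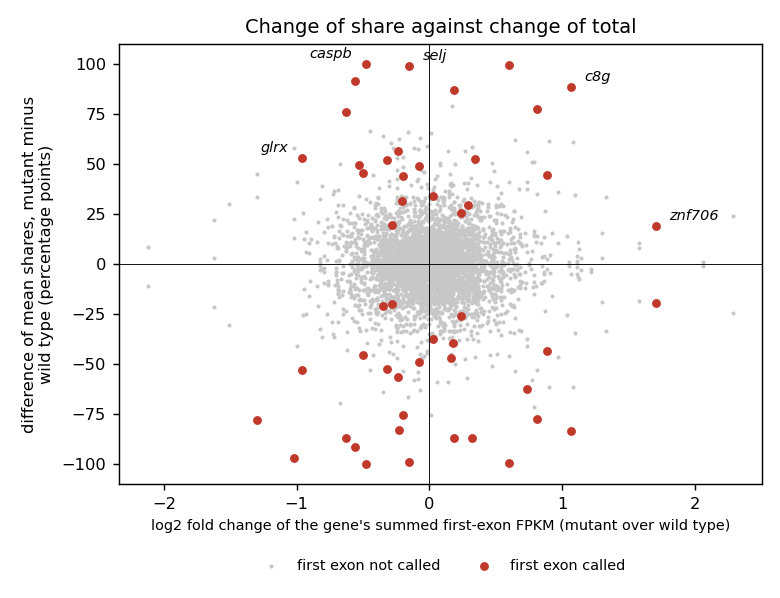
Difference of mean shares (mutant minus wild type, percentage points) of each tested first exon against the log2 fold change of its gene's summed first-exon FPKM (mutant over wild type, log2 of FPKM plus 1), n = 3 libraries each. Among called exons (red), selj differed by 99.0 points at a log2 fold change of -0.15 and caspb by 100 points at -0.48; c8g and znf706 lie to the right and glrx to the left.

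Last exons, tested in the same way, were called in 47 of 1817 cases (2.59%), in 27 of 842 genes (3.21%). Few genes could be read at both ends: 156 had tested first and last exons, 9 of them with a called last exon, and 3 of the 31 genes with a called first exon had tested last exons. Of these 3, CABZ01059415.2 had a called last exon. Its first exons lie on opposite strands, and so do its last exons. At both ends the exon on the minus strand held 74.8%, 100% and 100% in mutants and 0% in wild type. The shares were thus the same at both ends, and the called last exon repeats the first-exon result rather than adding a separate one. tuba8l4 had no called last exon, with its nearer one at 76.2%, 70.5% and 71.3% in mutants, against 76.1%, 68.6% and 74.1% in wild type (limma adjusted p = 0.96). The most used last exon of c8g held 95.8%, 97.1% and 96.0% in mutants, against 93.3%, 89.2% and 88.7% in wild type (limma adjusted p = 0.353). In the authors' deposited table, which tests each transcript, 23 of 30 genes with a called first exon (76.7%) had at least 1 transcript with an adjusted p under 0.05, as did 713 of the 2096 genes with a tested first exon (34%). Called genes without such a transcript there were c8g, setd8b, tbc1d1, cry1bb, gpc2, znf706 and carkd. Their lowest adjusted p in the authors' transcript test ran from 0.115 (c8g) to 0.733 (tbc1d1). The authors' table was made from the same libraries.

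Genes known for several promoters, and genes of the cells and functions linked to csf1ra, were counted by list. The lists are partial: called genes of like function, such as cry1bb among clock genes, impa1, acy1 and pank1b among enzymes, alyref among RNA-binding proteins and tuba8l4 and map7d1b among cytoskeletal genes, were not on them. Of 30 cytoskeletal linker genes with several promoters in mammals, 20 were members, 17 of them tested with 54 exons, and 1 exon was called, that of maptb, which was lower. Over all tested exons 1.02% were called, so 1 of 54 is near the background. The median absolute difference of that list was 12 points, beside 8.26 points over all tested exons. In utrn, the utrophin gene, the sixth exon held 49.7%, 48.8% and 55.6% in mutants, against 29.3%, 28.8% and 29.7% in wild type, which was not called (limma adjusted p = 0.175). clasp2, a microtubule plus-end gene, varied within genotypes: its first exon held 38.2%, 49.4% and 0% in mutants, against 20.1%, 20.7% and 11% in wild type (limma adjusted p = 0.925).

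In the other 11 lists limma called 0 of 157 exons, beside 1.02% over all tested exons. Of these 157, 11 had an unadjusted limma p under 0.05, beside 416 of all 4907 tested exons. limma diffSplice called 3 exons of these lists, in tnnt3a and srsf6a, beside 137 of the 4846 exons that it tested. Of 34 tropomyosin, troponin and other sarcomere genes, 11 were tested with 24 exons. tnnt3a, a fast muscle troponin T, had its upstream exon at 79.9%, 71.3% and 88.7% in mutants, against 98.6%, 97.5% and 95.9% in wild type, a gap without overlap that missed the threshold (limma adjusted p = 0.132). The third exon of tpm3, a tropomyosin, held 69.8%, 74.0% and 70.1% in mutants, against 64.8%, 60.6% and 68.3% in wild type (limma adjusted p = 0.71). Transcription factors with several promoters in mammals had 18 tested genes and 47 exons, RNA-binding proteins and splicing factors 16 and 40, and neurexin, protocadherin and other synaptic genes 9 and 24. In nrxn1a, a neurexin of presynaptic membranes, the most upstream exon held 33.7%, 65.8% and 48.8% in mutants, against 35.0%, 66.8% and 54.0% in wild type (limma adjusted p = 0.965). In srsf4, a splicing factor, the upstream exon held 61.6%, 60.2% and 63.2% in mutants, against 60.7%, 69.5% and 71.5% in wild type (limma adjusted p = 0.764).

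The lists tied to csf1ra's own cells offered few testable exons. Of 21 xanthophore and pteridine genes, 2 were tested with 4 exons, and 1 of these genes had a called total. slc2a11b, a sugar transporter family gene of yellow pigment cells, had a total that fell by 2.12 on the log2 scale in mutants (SE 0.19, limma adjusted p = 0.00393). Its downstream exon (9510346 to 9510526) held 67.8%, 51.5% and 70.4% in mutants, against 71.5%, 77.2% and 73.5% in wild type, with no call (limma adjusted p = 0.542). paics, an enzyme of purine synthesis, had its upstream exon at 61.0%, 69.7% and 64.8% in mutants, against 61.1%, 70.5% and 63.0% in wild type (limma adjusted p = 0.995). Of 25 macrophage and neutrophil genes only lcp1, an actin-bundling plastin of white blood cells, was tested. Mutant library 3 alone listed its upstream exon, at 72.8% of the gene (limma adjusted p = 0.666).

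Among 17 melanophore and iridophore genes 2 were tested with 3 exons, and among 14 type III receptor kinases and their ligands only pdgfaa, a ligand, with 2. The upstream exon of pdgfaa held 76.1%, 63.8% and 52.2% in mutants, against 65.6%, 52.8% and 58.3% in wild type (limma adjusted p = 0.869). Of 18 exocrine pancreas genes only prss59.2, a trypsin-like protease, was tested, and its upstream exon held 79.4%, 78.9% and 78.2% in mutants, against 87.4%, 71.7% and 80.7% in wild type (limma adjusted p = 0.972). Its total was 2.06 higher in mutants on the log2 scale, which was not called (SE 0.47, limma adjusted p = 0.0982). The lists of metabolic enzymes and circadian clock genes had 2 tested genes each, with 5 and 4 exons. In aldoaa, an aldolase of glycolysis, the upstream exon held 49.2%, 57.4% and 49.8% in mutants, against 61.9%, 65.8% and 59.7% in wild type, without overlap and without a call (limma adjusted p = 0.634). The upstream exon of tefa, a clock-controlled transcription factor gene, held 63.5%, 63.1% and 59.8% in mutants, against 55.1%, 62.5% and 57.8% in wild type (limma adjusted p = 0.832).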

How the data were processed

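RNA-seq values of whole embryos were taken from 6 deposited tables, 1 per library. Per the file headers, the authors gave FPKM for transcript-structure events, and first exons carry the event type TSS. The submitters' processing notes name SAMtools 0.1.18, Cufflinks 2.2.1, DESeq, HTSeq 0.6.1, HISAT2 2.0.1 and Trimmomatic 0.30 without roles, and the genome build GRCz10. An event not listed in a library entered the sums and tests as 0 FPKM, so a fold or share of such an exon depends on that 0. Whether an unlisted event was truly at 0 was not tested. FPKM are not counts, and no count model was run. A second deposited table holds the authors' own p-value and adjusted p-value per transcript, per the file headers. Its fold columns were not used, because their sides are not named. It paired 18493 of the 18494 gene IDs with a symbol.

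Shares, totals and differences were computed with Python 3.11.15 and pandas 2.3.3. Tests were run in R 4.3.3 with limma 3.58.1 (options trend and robust), a pseudocount of 1 FPKM, genotype as the only term and all 6 libraries, separately for first-exon shares, last-exon shares and gene totals. A fold change compares log2(FPKM + 1) values and so understates changes of weakly expressed genes. The procedure was tested on simulated log ratios of the 4907 first exons, of which 200 were given a change. It called 33% of the changes of 2 on the log2 scale and 87% of those of 4, and 5 unchanged exons were called. Exons of 1 gene share a denominator, so their tests are not independent.

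The members, lists and tests were chosen with earlier results of these data known. Genes described singly were the 12 largest differences in each direction among called exons with non-overlapping shares, at least 5 FPKM and a gene-name symbol, 1 exon per gene and, in ties, the one higher in the mutant. Only 9 were available in the lower direction. Up to 8 genes with different leading exons and up to 2 uncalled members per list were added, and values are given for some of them. Alternatives were other pseudocounts, floors and scales, rescaling, limma diffSplice, exons listed in all libraries, 1 exon per gene, the replicate number as a block, and leaving out each library. Loci of 1 gene were added after seeing the data. First-exon events without a gene ID (8096 over all libraries) were left out. Sequences were not used here.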

Additional observations from a re-analysis of the deposited data

How the results depend on the processing

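Against 50 first exons in 31 genes, the counts that moved by over 1.5 times were 137 exons in 79 genes with limma diffSplice, 24 in 18 with exons listed in all 6 libraries, 32 in 19 in loci of 1 gene and 28 exons with 1 exon per gene, where fewer exons were tested in the last 3. Leaving out 1 library gave 17 to 36 exons in 10 to 24 genes. Where the count moved less, the exons called could still differ. A pseudocount of 0.1 FPKM called 67 exons, 40 of them among the 50. The arcsine square root of the share called 66 (40 shared), and no filter on the mean share called 50 (39 shared). Dropping limma's trend and robust options gave 54, with all 50 shared. Same-numbered libraries did not deviate together (correlations of -0.045, 0.058 and -0.075). The labels do not say whether the numbers pair libraries, and 3 libraries per genotype are too few to settle it. With the replicate block 15 exons in 8 genes, 1 last exon and 33 totals were called. Against 47 last exons, the count was 106 with diffSplice, 31 at a floor of 5 FPKM, 9 with exons listed in all 6 libraries, 23 with 1 exon per gene, 19 in loci of 1 gene and 13 to 27 without 1 library. Against 180 totals it was 323 with 1 FPKM in at least 3 libraries and 36 to 249 without 1 library. The cause of these moves was not tested unless stated. Over the 21 named exons, 292 of 390 alternatives kept the call, 98 lost it and 0 reversed the direction. The kept calls include 21 from merging exons with the same splice donor and 21 from requiring a difference of at least 20 points. Neither of these could change a call, because all 8850 splice donors were distinct and every named exon differed by more than 20 points. Rescaling, with a further 21 kept calls, left every share as it was and could act only through the pseudocount and the floor. Read totals are unknown, so no limit from depth can be stated.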
